A study of Mus musculus with 5 samples.

Results

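*Gm26917* is a long non-coding RNA gene on mouse chromosome 17 that lies beside a sequence annotated as related to 18S ribosomal RNA. All ChIP-Seq summits within 10 kb of the gene were listed, which gave 10 of the 38651 summits of 5 libraries. The PU.1 library had 4 of its 8947 summits there, BATF 4 of 4060 and Input 2 of 25194. The control immunoglobulin libraries had none, with lists of 226 summits (goat Ig) and 224 summits (rabbit Ig). The locus was selected on measured values, namely the PU.1 score among summits that had a BATF summit within 500 bp and no Input, goat Ig or rabbit Ig summit within 500 bp, so the counts, scores and distances of its summits are a description without a test.

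The study asked how the transcription factor IRF8 acts in Th9 cells, T-helper cells that make IL-9. Part of it examined by ChIP-Seq which sites IRF8, IRF4, PU.1, BATF and ETV6 occupy there. Naive CD4 T cells from spleen and lymph nodes of wild-type C57/Bl6j mice aged 7 weeks were grown on plates coated with CD3 and CD28 antibodies, with 20 ng/ml IL-4, 2 ng/ml TGF-β and an antibody that blocks IFNγ. The labels give few hours of differentiation, and the study gives a day for its ChIP-Seq cells. Chromatin was precipitated with an antibody to PU.1, an Ets factor, to BATF, an AP-1 factor, or with control goat or rabbit immunoglobulin, and Input is chromatin without precipitation. For ChIP of PU.1 and BATF the study lists rabbit antibodies. Rabbit Ig is thus the control of the same species, and goat Ig is not. Each of the 5 libraries stands alone, without replicates. Read totals are not given, so a short list cannot be told from a shallow library. The lists measure no RNA, and the cell type was not checked against marker genes.

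Ribosomal RNA genes form tandem arrays in which each unit is transcribed by RNA polymerase I into a 45S precursor. The precursor begins with the 5′ external transcribed spacer, continues with 18S, 5.8S and 28S RNA separated by internal spacers, and is cut into the mature RNAs in the nucleolus. Assembled reference genomes hold few units of these arrays, while the cell holds many.

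On mm10, *Gm26917* (ENSMUSG00000097971.3) spans positions 39843013 to 39846341 on the plus strand in GENCODE M21, a length of 3329 bp. The RefSeq 18S-related sequence *Rn18s-rs5* begins just downstream, at 39846354, and ends at 39848202 on the same strand, covering 1849 bp. Its annotated type is pseudogene, and it is called 18S here. GENCODE annotates the ribosomal RNA itself as *CT010467.1*, on the minus strand, from 39846353 to 39848827. The long non-coding RNA genes *Gm42418* (39846958 to 39848788, plus strand) and *AY036118* (39847113 to 39848035, minus strand) overlap it. These 4 GENCODE genes were the only ones in the 23329 bp window. The order is thus *Gm26917* first and the 18S sequence second when the plus strand is read, with *Gm26917* in the place that the 5′ external transcribed spacer has in a 45S unit. The GENCODE and RefSeq tables used here name no 45S transcript or spacer in the window. The annotated 5.8S gene *n-R5-8s1*, 148 bp long, gave no alignment over 50 bp to the window, and its longest was 11 bp. The stretch therefore reached from upstream of 18S to 625 bp past it, without the 5.8S part, and 28S RNA was not analysed here.

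All 10 summits lay inside *Gm26917*, upstream of the 18S start. None lay in the 18S sequence, in the 625 bp after it or in either flank of the window. PU.1 summits stood at positions 39844326, 39844946, 39845743 and 39846198, which are 2028, 1408, 611 and 156 bp upstream of 18S. BATF summits stood at 39844301, 39845104, 39845755 and 39846267, at 2053, 1250, 599 and 87 bp. Input summits stood at 39843159 and 39844291, at 3195 and 2063 bp. The PU.1 and BATF summits thus began 1288 bp into the gene and reached its 3′ end, and both Input summits lay nearer the 5′ end than any of them, 1 of them by only 10 bp. The transcript with a single exon covers all 10 positions. In the spliced transcript, exons held the BATF summits at 39845104 and 39845755 and the PU.1 summits at 39845743 and 39846198.

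The 8 PU.1 and BATF summits fell into 4 pairs, 1 summit of each library in every pair. In all, 22.0% of the PU.1 summits had a BATF summit within 500 bp and 48.7% of the BATF summits a PU.1 summit, and nothing is read from the difference, since a close BATF summit was part of how the locus was chosen. The distance within the pairs was 25, 158, 12 and 69 bp from the 5′ to the 3′ end of *Gm26917*, with a median of 47 bp. Over the whole lists, the 1971 PU.1 summits with a BATF summit within 500 bp also had a median distance of 47 bp, with quartiles of 17 and 104 bp. The first and the fourth pair lay between these quartiles, the third was closer and the second wider. Successive PU.1 summits were 620, 797 and 455 bp apart and successive BATF summits 803, 651 and 512 bp. No summit name in the 5 lists carries a letter suffix, which MACS2 adds where it gives several summits to a peak, so each summit stood for a peak of its own.

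Each summit carries a score whose kind is not given, taken here to be higher for a stronger peak. It was used to order the summits of a list and, further on, to find genes with a like pattern. The PU.1 scores along the gene were 55.2, 3.17, 148 and 33.0, which placed the summits at ranks 84, 6657, 25 and 131 of 8947. The BATF scores were 26.0, 6.28, 141 and 22.0, at ranks 141, 1105, 21 and 163 of 4060. The order of the 4 pairs by score was the same in both libraries: the third pair was highest, then the first, the fourth and the second. With a score of 3.17, the PU.1 summit of the second pair was the only one of the 10 below the median of its list, which was 4.13 for PU.1, 4.74 for BATF and 4.07 for Input. On chromosome 17 the third pair held the highest score of the 380 PU.1 summits and of the 180 BATF summits.

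The sequence of each pair is shown so that the positions can be found in other copies of the repeat. It is read from the plus strand of mm10, with 40 bases on each side, and the capitals run from the summit of one factor to that of the other.
The first pair (chr17:39844261-39844366, 106 bases): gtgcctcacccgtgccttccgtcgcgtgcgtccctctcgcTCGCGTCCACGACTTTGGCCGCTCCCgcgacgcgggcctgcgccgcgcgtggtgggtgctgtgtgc
The second pair (chr17:39844906-39845144, 239 bases): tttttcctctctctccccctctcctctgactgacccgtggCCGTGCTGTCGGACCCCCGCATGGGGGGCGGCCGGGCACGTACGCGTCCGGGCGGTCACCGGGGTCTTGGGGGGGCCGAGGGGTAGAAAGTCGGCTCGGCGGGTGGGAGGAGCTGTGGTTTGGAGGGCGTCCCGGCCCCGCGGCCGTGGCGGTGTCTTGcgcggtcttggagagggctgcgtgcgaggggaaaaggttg
The third pair (chr17:39845703-39845795, 93 bases): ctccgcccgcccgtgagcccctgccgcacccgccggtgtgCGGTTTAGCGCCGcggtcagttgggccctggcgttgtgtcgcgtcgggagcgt
The fourth pair (chr17:39846158-39846307, 150 bases): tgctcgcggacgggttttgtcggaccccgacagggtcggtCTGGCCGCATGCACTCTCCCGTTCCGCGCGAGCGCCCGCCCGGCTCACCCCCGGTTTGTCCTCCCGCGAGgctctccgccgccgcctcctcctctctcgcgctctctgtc

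The Input list marked the same gene at a pair of positions. Its summit at 39844291 (score 57.8, rank 115 of 25194) lay 10 bp from the BATF and 35 bp from the PU.1 summit of the first pair. At this position 3 libraries therefore had a summit within 35 bp, and unprecipitated chromatin was among them. The Input summit at 39843159 (score 14.5, rank 935) lay 1142 bp from the nearest BATF and 1167 bp from the nearest PU.1 summit. Its surroundings on the plus strand of mm10 are shown because no factor had a summit there, with the summit base in capitals.
Input summit (chr17:39843109-39843209, 101 bases): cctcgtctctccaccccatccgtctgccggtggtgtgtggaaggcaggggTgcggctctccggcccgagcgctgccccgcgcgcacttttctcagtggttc

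The other 3 pairs had no Input summit within 500 bp. The nearest was 655 bp from the PU.1 and 813 bp from the BATF summit of the second pair, 1452 and 1464 bp from those of the third, and 1907 and 1976 bp from those of the fourth. Away from control summits there were thus 3 of 4 PU.1 and 3 of 4 BATF summits. Over the whole lists the shares were 68.1% for PU.1 and 67.4% for BATF. Nothing is read from this, since a PU.1 summit away from control summits was part of how the locus was chosen. None was left when the distance was set to 2000 bp, because the Input summit at 39844291 is closer than that to every pair, while 65.8% of all PU.1 and 65.7% of all BATF summits were still away at that distance. The nearest goat Ig and rabbit Ig summits on chromosome 17 were 3611547 and 8272545 bp from *Gm26917*. Whether enriched chromatin without a specific antibody contributed to the pairs was not tested, since a score does not compare libraries of unknown depth.

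Beyond the window, the nearest PU.1 summit stood 51630 bp upstream of *Gm26917* with a score of 5.59, and the nearest downstream 279710 bp away with a score of 3.73. For BATF these distances were 982305 and 547022 bp, and for Input 128814 and 203741 bp. Widening the window to 20 kb or narrowing it to the gene body left all counts unchanged.

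By the way the locus was chosen, no co-located PU.1 summit away from controls could score higher than the third pair there. In the PU.1 list 24 summits scored above 148, and all 24 had a BATF, an Input, a goat Ig and a rabbit Ig summit within 500 bp. In the BATF list 20 summits scored above 141, and all 20 had a summit of each other library within 500 bp. Without the *Gm26917* locus, the highest score away from control summits was 59.7 for PU.1 and 22.4 for BATF, and the median was 3.85 and 4.55. Of the summits at the locus away from controls, only those of the third pair exceeded these maxima. The BATF summit of the first pair, with an Input summit within 500 bp, scored 26.0, also above 22.4. Nothing is read from this, since the PU.1 score was used to choose the locus.

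The stretch was rich in G and C beside its flanks, both where it held summits and where it did not. From the start of *Gm26917* to the 18S start, 69.1% of bases were G or C, with 112 CpG dinucleotides per kb. The 18S sequence had 55.4% and 75.7 per kb, and the 625 bp after it, which held no summit, 71.4% and 131 per kb. The 10 kb upstream of *Gm26917* had 36.9% and 4.90 per kb, and the flank after *CT010467.1* 38.1% and 5.06 per kb. Along the gene in bins of 500 bp, the GC content was 64.0% in the first bin and 63.6% in the last, which reaches into 18S, and highest, at 73.4%, in the bin from 39845513 to 39846012 that held the third pair. The third pair had the highest PU.1 and BATF scores at the locus, but the other pairs were not ordered by GC content. The first pair lay in a bin of 71.0%. The second, with the lowest scores, lay in bins of 70.6% and 69.6%, and the fourth in the last bin, at 63.6%. Nothing is read from this, since the PU.1 score was used to choose the locus.

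In windows of 200 bp around the 10 summits the GC content ran from 66.5% at the 5′ Input summit to 77.0% at the PU.1 summit of the third pair, with a median of 72.2%. Over all summit windows on the assembled chromosomes the median was 39.5% for PU.1, 44.0% for BATF and 36.0% for Input. Repeat-masked bases made up at most 18.5% of a window at the locus, against a median of 100% for PU.1, 94.5% for BATF and 100% for Input. The windows at the locus were therefore rich in G and C and mostly outside the masked repeats in which most summits of these lists lay. Every window held at least 19 CpG dinucleotides and at most 32.

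A class of windows with at least 15 CpG dinucleotides, a limit chosen after the values were seen, was counted beside the locus. It held 1152 PU.1 windows (13.0%), 1146 BATF windows (28.8%) and 133 Input windows (0.533%), with 8 goat Ig (5.03%) and 6 rabbit Ig windows (3.73%), against 0.475% of the 458500 tiles of 200 bp on chromosome 17. Within this class the PU.1 summits of the locus ranked 4, 974, 1 and 5 by score from the first to the fourth pair, and the BATF summits 6, 471, 1 and 9. The Input summits ranked 14 and 8 of 133. These ranks describe the locus and support nothing, since the scores of PU.1 were used to choose it. A BATF summit within 500 bp was found for 51.3% of the CpG-rich PU.1 summits and an Input summit for 4.34%. Over the whole PU.1 list these shares were 22% and 31.7%. Seen from the 133 CpG-rich Input summits, 38.3% had a PU.1 and 33.8% a BATF summit within 500 bp. Over the whole Input list these shares were 11.6% and 5.28%. A close Input summit, as in the first pair, was thus uncommon among the 1152 CpG-rich PU.1 summits, in a class with only 133 Input windows.

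Motifs of factors that the study names were searched on both strands as GAGGAAGT for PU.1, TGANTCA for AP-1, GAAANNGAA for IRF and GGAANTGAA for ETS-IRF. None of the 10 windows of 200 bp held any of them. Over the whole lists, GAGGAAGT was in 0.565% of PU.1, 0.552% of BATF and 0.841% of Input windows and in 1.16% of the tiles of chromosome 17. TGANTCA was in 1.11%, 0.603% and 1.87% of the windows and in 5.84% of the tiles, and GAAANNGAA in 10.5%, 6.40% and 15.8% and in 7.57% of the tiles. GGAANTGAA was in 3.28%, 0.979% and 9.71% and in 2.19%. The IRF letters were thus the most frequent of the 4 in each of these lists and also in the tiles, so this order is not particular to summits. Windows of a pair overlap, so the 10 windows are not separate samples of sequence, and a count of 0 says only that these letters were absent from them.

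Over the whole 5815 bp from *Gm26917* to the end of *CT010467.1* there were 3 matches. The IRF motif was at 39845972 to 39845980 on the minus strand, 217 bp from the BATF summit of the third pair and 218 bp from the PU.1 summit of the fourth. The AP-1 motif at 39847603 and the PU.1 motif at 39848146 both lay within 18S, 1336 and 1879 bp from the nearest summit. The PU.1 and AP-1 letters of this stretch thus stood where no library had a summit.

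Other places in the reference resembled the 18S sequence more than the part with the summits. Aligned to the rest of the assembly, the 5815 bp had 5 places with at least 90% identity over 200 bp, of which 4 matched 18S and 1 the first bases of *Gm26917*. The closest was on chromosome 6 from 3200770 to 3201670, with 98.2% identity over 901 bp of 18S. It was the only one of the 5 with a summit in it or within 500 bp, 1 from the Input list. The upstream place, on chromosome 11 from 104072709 to 104073121, matched positions 39843013 to 39843424 with 92.0% identity and had no summit. With at least 80% identity there were 18 places, 15 in 18S and 3 upstream, and the Input summit on chromosome 6 was the only summit in them.

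Counted by base, places of at least 80% identity covered 1809 bp (97.8%) of 18S and 412 bp (12.3%) of the part upstream, all of them at its 5′ end. The Input summit at 39843159 lay in those 412 bp. The other 9 summits, with all PU.1 and BATF summits, lay in sequence that had no such place in the primary assembly. An exact match of at least 75 bases, the read length in the study's methods, occurred for 1 stretch, 140 bp from 39846352 to 39846491 at the start of 18S, on chromosome 16 from 18533192 to 18533331. It reached the edge of 1 window, that of the BATF summit at 39846267, and the remaining 9 windows overlapped no exact match longer than 37 bases. How many units the reads came from was not tested, because the lists hold no reads.

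Across the 55413 genes on the assembled chromosomes, a summit in the gene or within 10 kb was found for 13.2% in the PU.1, 7.83% in the BATF, 20.8% in the Input, 0.242% in the goat Ig and 0.251% in the rabbit Ig list. Summits of PU.1, BATF and Input together, as at *Gm26917*, were found for 2.39%. At least 4 PU.1 and 4 BATF summits were found for 20 genes (0.0361%), of which 4 were the genes of the locus. The others included long genes, such as *Camta1* (945 kb), *Tmem189* (47.2 kb), with 4 PU.1, 4 BATF and 1 Input summit and no goat Ig or rabbit Ig summit, and genes with control summits, such as *Gm10801*, with 4 goat Ig and 4 rabbit Ig summits. Of 116818 tiles as long as the window, 3 (0.00257%) held as many, none of them on chromosome 17, because an edge between tiles divides the summits of the locus. Nothing is read from these shares, since the locus was chosen from the same lists. Genes named in this comparison were chosen after their values were seen.

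The genes most like *Gm26917* by the highest score in each of the 5 libraries were *Ttc21b*, *Asmt*, *Shroom2*, *Gm49554* and *Kctd16*. Their Euclidean distances were 0.63, 0.68, 0.86, 0.93 and 1.00 on log10(1 + score), among 55409 genes outside the locus. *Ttc21b* shares its summits with 1 other gene, *Gm13618*. None of the 5 had a goat Ig or rabbit Ig summit. The highest scores at *Ttc21b*, the nearest in pattern, were 53.9 for PU.1, 49.9 for BATF and 68.9 for Input, and at *Gm26917* they were 148, 141 and 57.8. These maxima at *Gm26917* come from different positions, PU.1 and BATF from the third pair and Input from beside the first, and each score belongs to its own list.

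Genes that act in ribosomal RNA synthesis were listed whatever their values: subunits of RNA polymerase I, its initiation and termination factors, a general regulator of growth, and factors of RNA processing and subunit assembly. Of the 27 genes, 3 (11.1%) had a PU.1, 3 (11.1%) a BATF and 2 (7.41%) an Input summit in the gene or within 10 kb. Over 21938 protein-coding genes the shares were 19.5%, 12.3% and 25.3%, so these counts were near or below the background. Goat Ig had a summit at 1 of the 27 (3.70%), against 0.401% of protein-coding genes, and rabbit Ig at none. A PU.1 summit lay inside *Bop1* (score 5.43), and others lay outside *Wdr12* (3.86) and *Nolc1* (3.95) but within 10 kb. The proteins of *Bop1* and *Wdr12* work together in maturing the large ribosomal subunit, and *Nolc1* encodes a nucleolar chaperone. BATF summits lay outside *Npm1* (4.74), *Cd3eap* (2.99) and *Dkc1* (2.17) but within 10 kb. *Npm1* encodes the nucleolar protein nucleophosmin. Its BATF summit, at 33147902, and its goat Ig summit, at 33165745, lay on opposite sides of the gene. *Cd3eap* encodes a subunit of RNA polymerase I, and *Dkc1* the enzyme that makes pseudouridine in ribosomal RNA. No gene of the list had summits of both factors. The 3 BATF scores were below all 4 at *Gm26917*, and the 3 PU.1 scores lay above that of the second pair and below the other 3.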

How the data were processed

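The authors deposited for each library a list of 1 bp summits on mm10 with a score, whose kind is not given in the sources used here. Summit names are those of MACS2, the processing notes name Bowtie2, and the study's methods name Bowtie, MACS for conversion to BED files and FindPeaks for peak calling. Options, control libraries and depth are not given. All summits on the assembled chromosomes lay within GRCm38.p6, the build of the sequence, GENCODE M21 and RefSeq tables used. Positions are 1-based. The members and lists were chosen with earlier results of these data known.

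Distances, windows and motifs were computed with Python 3.11.15, pandas 2.3.3, numpy 2.4.6, scipy 1.17.1 and pysam 0.24.0, tested on simulated data. Sequence was aligned with BLAST 2.17.0 without low-complexity masking, and places within 1000 bp were merged. Exact matches shorter than 24 bp were not searched. Summits on unplaced sequences were not analysed here beside the alignment, and all 18 places of at least 80% identity lay on assembled chromosomes. With 1 library per group no test was run. Genes named were those of the window, the ribosome genes with a PU.1 or BATF summit, and the 5 nearest by score pattern, with a gene that shares their summits. The 5.8S gene was named for the alignment, and *Camta1*, *Tmem189* and *Gm10801* after their values were seen. Alternatives varied the flank, score threshold, distances, windows, alignment limits and gene set.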

Additional observations from a re-analysis of the deposited data

How the results depend on the processing

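No paired analysis was possible because each group held 1 library and no test was run. Of 87 alternative values, 68 stayed near the reported one, that is within its 95% binomial interval for a share and within 1.5 times for a count. Summit counts at the locus did so for every flank and for scores above the list median. The flank counts could not change, since all 10 summits lay in the gene body and the nearest other was 51630 bp away. Motif counts of 0 in windows of 200 bp likewise fixed those in windows of 100 bp. Part of the 68 was therefore settled in advance. Required on the same base, the share of PU.1, BATF and Input summits near a summit of another of these lists was 0% for each of the 6 ordered pairs, and no other distance moved it beyond its interval. At 2000 bp, 0 PU.1 and 0 BATF summits were away from control summits, against 65.8% and 65.7% of the whole lists. The median masked share was 0% in windows of 100 bp, and 3 windows of 500 bp held an IRF match. Places like the locus numbered 18 at 80% identity, 2 at 95% and 0 over 1000 bp, where the Input summits in them were also 0. Among protein-coding genes the share with a summit was 19.5% for PU.1, 12.3% for BATF, 25.3% for Input, 0.401% for goat Ig and 0.383% for rabbit Ig. The causes of these differences were not tested, except that a stricter identity or length or a smaller distance admits fewer places and summits by construction. Intervals over 2 or 4 summits cover counting error only and are wide. Depth, replicates and reads are missing, so presence in a list depends on thresholds that could not be varied downward.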
